A study of Mus musculus with 3 samples.

Results

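Slc7a11 and 9 genes of the glutathione defence (Slc3a2, Gclc, Gclm, Nfe2l2, Gpx4, Txnrd1, Nqo1, Hmox1 and Srxn1) were followed in single nuclei of differentiated neurosphere cultures. They are 10 of the 30559 genes counted, and each was found once by its symbol. The set was chosen by the level of Slc7a11, which was lower in every class of nuclei of both ablated libraries, so its values in those comparisons are a description and support nothing by themselves. The other 9 were taken for their place in the same pathway, and the question asked of them was whether they went with Slc7a11.

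The study removed CBP or p300, the paralogous lysine acetyltransferases of the KAT3 family, from neural stem cells of the subventricular zone of newborn C57BL/6 mice. Neurospheres of CBPf/f or p300f/f genotype received a lentivirus with Cre fused to mCherry, the control received a lentivirus with RFP, and all 3 were differentiated to day 15 in vitro. Each of the 3 libraries (control, CBP-ablated and p300-ablated) was a pool of about 15 cultures, with nuclei sorted by RFP or mCherry, so there was 1 library per condition and no replicate. The line of mice behind the control cultures is not stated, and the labels name tamoxifen as the treatment of all 3 samples where the methods describe lentivirus. The deposited rows for the vectors went with the labels: the RFP control row had 108 UMIs (unique molecular identifiers, 1 per captured RNA molecule) in the control library and 0 in both others. The first Cre-mCherry row had 0, 21 and 9 UMIs in the control, CBP-ablated and p300-ablated library, which does not tell the ablated libraries from each other.

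Slc7a11 encodes the light chain of the cystine/glutamate exchanger system xc-, which brings cystine into the cell in exchange for glutamate, and Slc3a2 encodes the heavy chain that it shares with other amino acid carriers. Cystine gives the cysteine that glutamate-cysteine ligase, with its catalytic subunit Gclc and its modifier subunit Gclm, joins to glutamate as the first step of glutathione synthesis. Many genes of this defence carry antioxidant response elements bound by NRF2, the product of Nfe2l2, and Slc7a11 is also known as a target of ATF4, a factor of amino acid shortage. In the brain, astrocytes are known for supplying glutathione precursors to neurons.

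Slc7a11 (ENSMUSG00000027737) lies on the minus strand of chromosome 3 from 49892526 to 50443614 in GRCm38, and its GENCODE M21 model spans 551089 bases. UMIs were counted over exons and introns of the study's own annotation release, not of M21, so intronic reads of this long gene count toward its level. Of the 5 annotated genes that overlap it, 1 was a row of the files, the antisense gene Gm37854, with 1 UMI in all. The other members lie on chromosomes 19 (Slc3a2), 9 (Gclc), 3 (Gclm), 2 (Nfe2l2 and Srxn1), 10 (Gpx4 and Txnrd1) and 8 (Nqo1 and Hmox1). The 250 bases before the RefSeq start of Slc7a11 (chr3:50443614-50443863, GRCm38.p6, minus strand) are shown because they carry the elements for which the gene is known, with the matches of the amino acid response element in capitals.
Slc7a11: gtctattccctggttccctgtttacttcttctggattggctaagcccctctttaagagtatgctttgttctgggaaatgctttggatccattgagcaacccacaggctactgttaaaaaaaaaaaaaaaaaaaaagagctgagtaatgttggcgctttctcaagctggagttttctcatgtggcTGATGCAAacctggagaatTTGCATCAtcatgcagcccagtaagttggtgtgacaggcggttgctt
These 2 matches of TGATGNAA, searched on both strands, begin 66 and 47 bases before the start, and they do not overlap. Of the 32851 RefSeq promoter windows of the same length (250 bases before to 50 after a start), 3.97% held this motif and 0.0700% held it 2 or more times. The window of Slc7a11 held no match of TGACNNNGC, the core of the antioxidant response element (12.4% of windows), or of TGACGTCA, the cAMP response element (1.79%). Windows were found for 8 of the 10 members, and the antioxidant core matched in those of Nfe2l2, Srxn1, Gclm and Txnrd1. A match is a description of letters and not a binding site. Since Slc7a11 is known for the amino acid response element, the rarity of its matches among windows is a description too.

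The libraries held 4884, 3017 and 4648 nuclei with 16312170, 12748336 and 18876682 UMIs in the control, CBP-ablated and p300-ablated library, and pairs of libraries shared 3, 7 and 1 barcodes. Clustering gave 12 clusters, of which 10 were named from their markers by limits set after the clusters were seen, and clusters 7 and 11 stayed unnamed. Cluster 5-like nuclei were named by the markers Kcnj6, Nell2 and Cacng4, a set for immature neurons. Astrocyte-like nuclei, with all 7 of their markers, numbered 1279 in control and 0 in both ablated libraries. Whole libraries therefore differ in their makeup, and summed levels cannot tell fewer cells of a type from less RNA per cell. Levels below are UMIs per 1000000 UMIs of the same nuclei (CPM). A class-matched ratio divides the UMIs observed in the ablated library by those expected if each of the 9 other named classes had its control level. Ranges in parentheses are 95% intervals for counting error only, and no test between conditions was possible.

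Slc7a11 RNA was concentrated in the astrocyte-like nuclei of control, and whole ablated libraries held far less of it. Its level was 324 CPM (315 to 332) in the control library, 8.63 CPM (7.09 to 10.4) in the CBP-ablated library and 10.3 CPM (8.93 to 11.9) after p300 ablation, from 5278, 110 and 195 UMIs. The whole-library log2 ratio was −5.23 (−5.51 to −4.96) for CBP and −4.97 (−5.18 to −4.76) for p300, that is 37.5 and 31.3 times lower. Among the rows with 100 UMIs or more, the whole-library ratio was lower still for 2 of 11883 (CBP) and 3 of 12247 (p300). In each comparison 1 of these was no gene but the RFP row of the control vector, with 108 UMIs in control and 0 after ablation. Of all rows counted, 3.99% and 2.12% were at least 2 times lower. In the control library 83.3% of the Slc7a11 UMIs were in astrocyte-like nuclei, where the level was 1120.3 CPM (1087 to 1154). Of these nuclei 74.0% had at least 1 UMI, 44.5% had at least 3, and the highest had 26. The gene led this cluster and had entered the clustering, so its rank there is not a finding.

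Outside the astrocyte-like nuclei the control level was 71.3 CPM, with the unnamed clusters included. Of these, cluster 7 had 421 CPM (364 to 484) and cluster 11 had 259 CPM (213 to 312). In cluster 7 the UMIs came from 40 of the 216 control nuclei, and 1 nucleus held 32 of the 195. The 9 other named classes together had 50.3 CPM. Among these named classes the level was highest in glial progenitor-like nuclei, at 125 CPM (107 to 145). Next came microglia-like nuclei at 84.2 CPM (54.0 to 125), RGC/PSC-like nuclei at 78.1 CPM (65.2 to 92.9) and neuron-like nuclei at 58.4 CPM (34.6 to 92.3), whose intervals overlap each other, that of the microglia-like nuclei also overlapping the glial progenitor-like one. Committed oligodendrocyte precursor-like nuclei had 41.9 CPM (32.7 to 53.0), cluster 5-like nuclei 36.6 CPM (26.9 to 48.6) and proliferating-like nuclei 29.2 CPM (16.7 to 47.4). The order ended with NPC/OPC-like nuclei at 25.5 CPM (20.6 to 31.4) and oligodendrocyte-like nuclei at 17.8 CPM (9.95 to 29.3). These last 5 classes overlap from each to the next. Some levels lean on single nuclei: 1 nucleus held 9 of the 18 Slc7a11 UMIs of neuron-like nuclei. Another held 8 of the 24 of microglia-like nuclei, and another 14 of the 70 of committed oligodendrocyte precursor-like nuclei. The counting intervals do not cover such unevenness between nuclei.

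**Figure D1:**
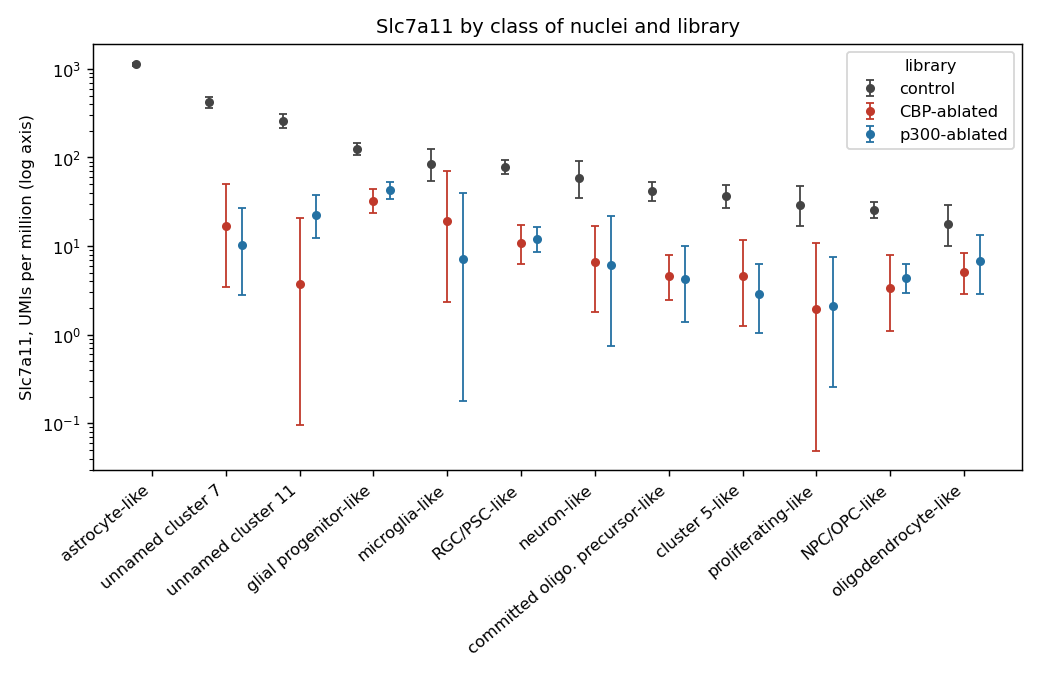
Slc7a11 level by class of nuclei (x axis, ordered by the control level) and library, in CPM on a log axis; points are the summed level of 1 library and bars its 95% Poisson interval. Astrocyte-like nuclei (1120.3 CPM) exist in control alone, and in each of the 11 other classes and clusters both ablated points sit below the control point.

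In the ablated libraries Slc7a11 was lower in each of the 9 named classes that could be compared, which is the pattern it was chosen for. In glial progenitor-like nuclei the levels were 125, 32.6 and 42.5 CPM in the control, CBP-ablated and p300-ablated library. In RGC/PSC-like nuclei they were 78.1, 10.8 and 12.1 CPM, and in NPC/OPC-like nuclei 25.5, 3.38 and 4.41 CPM. Glial progenitor-like nuclei thus had the highest level of the named classes in both ablated libraries. The log2 ratio by class ran from −3.91 to −1.80 for CBP and from −3.80 to −1.40 for p300, with the interval below 0 in 9 of 9 classes of each. Of all genes with at least 100 UMIs, 1.13% were lower in each of the 9 classes of the CBP-ablated library and 1.12% in each of those of the p300-ablated library. Several of these classes rest on few molecules: proliferating-like nuclei had 16, 1 and 2 Slc7a11 UMIs, and microglia-like nuclei 24, 2 and 1.

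Matched for class, the CBP-ablated library held 106 Slc7a11 UMIs where 596 were expected, a log2 ratio of −2.49 (−2.80 to −2.18) or 5.62 times lower. The p300-ablated library held 177 where 878 were expected, a log2 ratio of −2.31 (−2.56 to −2.07) or 4.96 times lower. The ablated libraries were compared with each other directly, and the class-matched log2 ratio of CBP over p300 was −0.23 (−0.61 to 0.16). Nuclei with at least 1500 UMIs were thinned to that depth. This left out 248, 95 and 135 nuclei of the control, CBP-ablated and p300-ablated library. Of those kept, 61.1% of control astrocyte-like nuclei had a Slc7a11 UMI, against 13.0% of glial progenitor-like and 2.52% of oligodendrocyte-like nuclei. In the ablated libraries the thinned share in glial progenitor-like nuclei was 3.62% and 5.54%. Before thinning the shares of glial progenitor-like nuclei were 20.8%, 6.14% and 10.7%.

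The level of astrocyte RNA outside the astrocyte-like nuclei also differed between the libraries. In droplet data, free RNA of an abundant cell type reaches the barcodes of others, and the control library alone held astrocyte-like nuclei. In the control library, Slc7a11 in the 9 other classes stood at 4.49% (4.13 to 4.87) of its astrocyte-like level. In 7 of the 9 classes it stood below the lowest of the 7 astrocyte markers. In NPC/OPC-like nuclei it was at 2.28% of the astrocyte-like level against 11.8% for the lowest marker, Apoe. In committed oligodendrocyte precursor-like nuclei, by contrast, it was at 3.74% against 3.43% for Slc1a2. Several of these markers are also known from neural progenitors, so their level in the other classes is not a measure of free RNA alone.

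**Figure D2:**
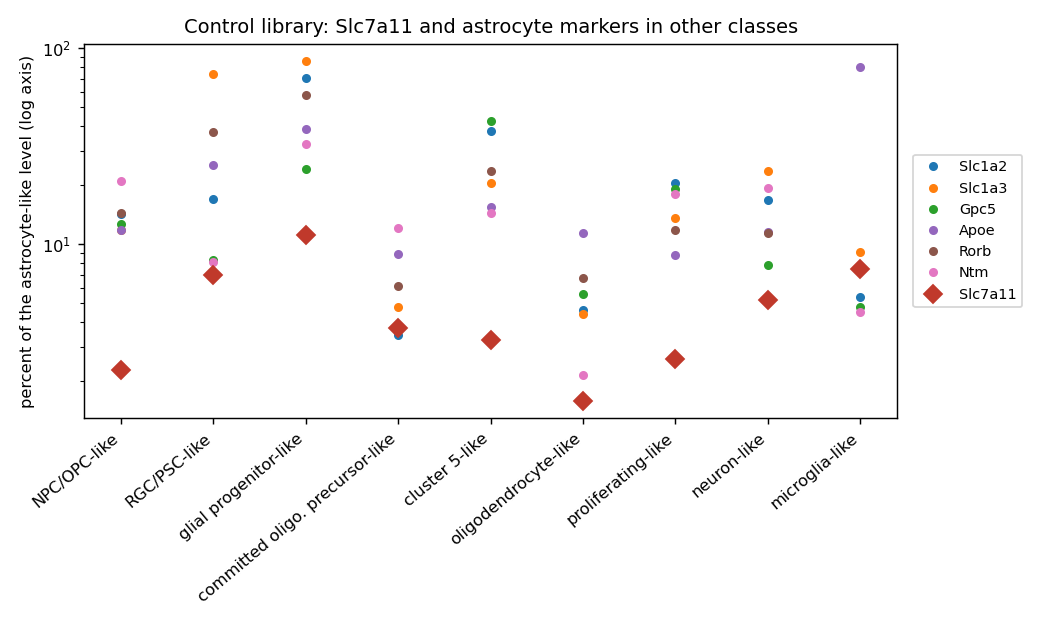
Control library: level of Slc7a11 (diamonds) and of 6 of the 7 astrocyte markers (dots) in the 9 other named classes, as percent of their level in astrocyte-like nuclei, on a log axis. Slc7a11 lies below all 6 plotted markers in 7 of the 9 classes and between 1.59% and 11.2% in all of them.

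Outside the astrocyte-like nuclei the summed level of the 7 markers was 4514 CPM in control, 2152 after CBP ablation and 3927 after p300 ablation, and none of the 7 was at 0 in any library. The markers did not move alike. In the same order Ntm, the largest part of the sum, had 2142, 1144 and 1766 CPM, Slc1a3 464, 346 and 459 CPM and Apoe 174, 91.5 and 87.6 CPM. Of the 10 rows whose levels ran most like Slc7a11 over classes and libraries, listed further on, the 9 genes ran from Slc25a34 at 3.19% (2.02 to 4.78) to Txlnb at 21.1% (17.3 to 25.4) of their astrocyte-like level in the 9 other control classes, and the RFP row of the control vector at 29.3%. Slc6a11, a GABA transporter of astrocytes, stood at 5.96% (5.34 to 6.62) and Apoe at 18.4%. These rows were picked for their likeness to Slc7a11, so their levels are a description and no separate scale. With 10% of the UMIs of each class subtracted as free RNA with the profile of its whole library, the class-matched log2 ratio of Slc7a11 was −1.40 for CBP and −1.21 for p300. A lower level of Slc7a11 in the other classes and a lack of free RNA from astrocyte-like nuclei cannot be told apart in these libraries. Astrocyte-like nuclei were present in the control alone, while RNA of the markers was present in all 3 libraries.

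Slc3a2, the heavy chain of the exchanger, was lower in whole libraries by far less than Slc7a11. It had 48.6 CPM (45.2 to 52.1) in control, 31.2 CPM (28.2 to 34.4) after CBP ablation and 24.1 CPM (21.9 to 26.4) after p300 ablation. Control astrocyte-like nuclei had the highest level, 101 CPM (91.7 to 112), and outside them the control level was 31.8 CPM. The class-matched log2 ratio was −0.20 (−0.44 to 0.03) for CBP, a difference not detectable at this depth, and −0.41 (−0.62 to −0.19) for p300. In the p300-ablated library it was lower in 9 of 9 classes, with the interval below 0 in 2 of them, and in the CBP-ablated library in 4 of 9. Of all genes 1.12% were lower in each of 9 classes for p300. Oligodendrocyte-like nuclei were the 1 class with the interval below 0 in both libraries, at 43.8, 22.5 and 20.2 CPM in control, CBP-ablated and p300-ablated nuclei. RGC/PSC-like nuclei, at 54.3, 69.9 and 45.2 CPM, had the higher value after CBP ablation, at a log2 ratio of 0.37 (−0.05 to 0.78) whose interval includes 0. The class-matched log2 ratio of CBP over p300 was 0.43 (0.19 to 0.67), so the ablated libraries differed from each other beyond counting error for this chain.

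Both subunits of glutamate-cysteine ligase were lower in both ablated libraries beyond counting error, by far less than Slc7a11. Gclc, the catalytic subunit, was higher in control glial progenitor-like and RGC/PSC-like nuclei than in astrocyte-like nuclei. It had 329 CPM (299.6 to 361) in glial progenitor-like, 223 CPM (200.4 to 247) in RGC/PSC-like and 145 CPM (133 to 157) in astrocyte-like nuclei. Lower levels, between 41.3 and 85.8 CPM, were found in NPC/OPC-like, cluster 5-like, neuron-like, proliferating-like and both oligodendrocyte classes. In whole libraries it had 128, 93.0 and 88.3 CPM. The class-matched log2 ratio was −0.25 (−0.37 to −0.12) for CBP and −0.42 (−0.53 to −0.32) for p300. In glial progenitor-like nuclei Gclc had 329, 202 and 229 CPM, log2 ratios of −0.71 (−0.93 to −0.49) and −0.53 (−0.72 to −0.34). In RGC/PSC-like nuclei it had 223, 176 and 165 CPM, log2 ratios of −0.34 (−0.57 to −0.11) and −0.43 (−0.62 to −0.23). These were the classes with the interval below 0 in both ablated libraries, and the interval was also below 0 in NPC/OPC-like and proliferating-like nuclei of the p300-ablated library.

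Gclm, the modifier subunit, had 65.5 CPM (61.6 to 69.5) in control, 37.5 CPM (34.2 to 41.0) after CBP ablation and 44.8 CPM (41.8 to 47.9) after p300 ablation. Matched for class the log2 ratio was −0.55 (−0.74 to −0.35) for CBP and −0.24 (−0.40 to −0.09) for p300, and that of CBP over p300 was −0.32 (−0.52 to −0.13). The lower level after CBP ablation had the interval below 0 in 5 of 9 classes and that after p300 ablation in 0 of 9. The 5 classes were RGC/PSC-like nuclei at 89.7 CPM in control and 54.7 after CBP ablation, glial progenitor-like at 107 and 78.2, oligodendrocyte-like at 56.9 and 32.3, cluster 5-like at 38.9 and 21.7, and microglia-like at 179 and 77.2. Of these, the cluster 5-like class of the CBP-ablated library changed in size with the clustering. Committed oligodendrocyte precursor-like nuclei, at 19.8, 21.9 and 24.8 CPM, showed no difference detectable at this depth.

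Nfe2l2, which encodes the factor NRF2, was highest in microglia-like nuclei of all 3 libraries. The levels there were 295, 318 and 199 CPM in the control, CBP-ablated and p300-ablated library, from 84, 33 and 28 UMIs. RGC/PSC-like nuclei had 107, 88.4 and 88.9 CPM and glial progenitor-like nuclei 87.5, 74.6 and 74.3 CPM, whereas NPC/OPC-like nuclei had 5.61, 6.09 and 5.58 CPM and committed oligodendrocyte precursor-like nuclei 4.19, 7.07 and 4.28 CPM. Nfe2l2 RNA was thus low in the precursors of the oligodendrocyte line in every library, but not in them alone. In control it was also low in neuron-like nuclei at 3.24 CPM and proliferating-like nuclei at 1.83 CPM, from 1 UMI each. Cluster 5-like nuclei had 11.7 CPM. The whole-library log2 ratio was −0.64 (−0.82 to −0.47) for CBP and −0.62 (−0.77 to −0.46) for p300, and the class-matched ratio −0.23 (−0.45 to −0.02) and −0.25 (−0.44 to −0.07). In no class of either ablated library did the interval exclude 0. NRF2 is known to be controlled mainly by the stability of the protein, which RNA counts do not show.

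Gpx4, the selenoenzyme that reduces lipid peroxides with glutathione, had the same level in all 3 libraries within counting error, at 16.4 CPM (14.5 to 18.5), 17.4 CPM (15.2 to 19.9) and 16.5 CPM (14.7 to 18.5). The class-matched log2 ratio was −0.32 (−0.65 to 0.01) for CBP and 0.07 (−0.20 to 0.35) for p300. In 1 class the interval for CBP lay below 0, oligodendrocyte-like nuclei, at 42.6 CPM in control and 19.7 after ablation, a log2 ratio of −1.11 (−1.74 to −0.47) from 36 and 58 UMIs. The p300-ablated library had 31.2 CPM there, a log2 ratio of −0.45 (−1.15 to 0.25).

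Txnrd1, the cytosolic thioredoxin reductase, had 57.3, 44.2 and 52.3 CPM in the whole control, CBP-ablated and p300-ablated library. The class-matched log2 ratio was −0.17 (−0.36 to 0.01) for CBP and −0.10 (−0.25 to 0.05) for p300. Classes of the CBP-ablated library went both ways. RGC/PSC-like nuclei had 97.6 CPM in control and 49.6 after ablation, a log2 ratio of −0.98 (−1.39 to −0.58). Cluster 5-like nuclei had 43.6 and 65.1, a log2 ratio of 0.58 (0.02 to 1.14) whose lower limit is near 0. The nuclei that fell in the cluster 5-like class after CBP ablation also depended on the clustering. In the p300-ablated library no class had an interval clear of 0. Srxn1, the sulfiredoxin that repairs overoxidized peroxiredoxins, had 47, 15 and 29 UMIs in all, too few for a comparison by class. Its whole-library log2 ratio was −1.29 (−2.24 to −0.43) for CBP and −0.91 (−1.63 to −0.21) for p300, and matched for class both intervals included 0.

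Hmox1, the inducible heme oxygenase, was the member nearest to Slc7a11 in whole libraries. It had 23.0 CPM (20.7 to 25.4) in control, 5.41 CPM (4.21 to 6.85) after CBP ablation and 11.1 CPM (9.67 to 12.7) after p300 ablation, log2 ratios of −2.09 (−2.48 to −1.71) and −1.05 (−1.30 to −0.80). Control astrocyte-like nuclei held 200 of its 375 UMIs, at 51.0 CPM, and microglia-like nuclei had 80.7 CPM. Matched for class the log2 ratio was −0.84 (−1.29 to −0.38) for CBP and −0.13 (−0.46 to 0.21) for p300, and that of CBP over p300 was −0.72 (−1.16 to −0.28). In the CBP-ablated library it was lower in 9 of 9 classes, from 64 UMIs in all and beside 1.13% of all genes, with the interval below 0 in glial progenitor-like nuclei alone, at 22.8, 7.96 and 22.3 CPM. Nqo1, the quinone reductase often read as a gauge of NRF2 activity, had 71, 30 and 57 UMIs. Its whole-library log2 ratio was −0.89 (−1.55 to −0.25) for CBP and −0.53 (−1.06 to −0.00) for p300, and matched for class −0.27 (−1.08 to 0.54) and −0.02 (−0.67 to 0.63).

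**Figure D3:**
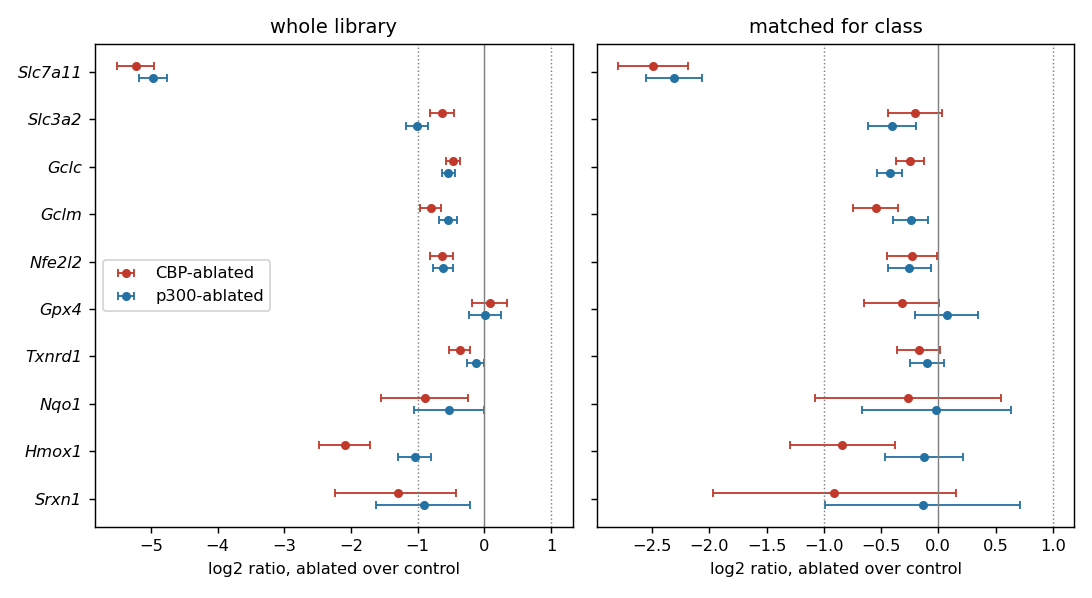
Log2 ratio of each of the 10 genes in the CBP-ablated and p300-ablated library against control, over whole libraries (left) and matched for class (right), with 95% counting intervals; dotted lines mark a ratio of 2 times either way and the 2 panels have their own x scales. Slc7a11 stands apart in both panels, and the other 9 lie within 1 log2 unit of 0 when matched for class.

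Few of the other members were at least 2 times lower, the size used here to ask whether they went with Slc7a11. In whole libraries 1 of the 8 other members with at least 100 UMIs was at least 2 times lower in the CBP-ablated library (Hmox1), where 3.99% of all genes were, and 2 of 8 in the p300-ablated library (Slc3a2 and Hmox1), where 2.12% of all genes were. None was at least 2 times higher, with 2.89% and 0.694% of all genes past that size. Matched for class, 0 of the 7 with at least 100 UMIs was at least 2 times lower in either library, beside 0.809% of all genes for CBP and 0.291% for p300, and 0 of 7 was at least 2 times higher, beside 0.507% and 0.359%. At such shares a count of 0 among 7 genes is near the background. Srxn1 had too few UMIs for both counts and Nqo1 for the class-matched one. Hmox1 passed the size for CBP under 3 other clusterings, at −1.06 with a coarser resolution, −1.12 with other variable genes and −1.06 with the members left out.

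The shift of the other members was small and mostly downward. Matched for class, 7 of 7 lay below 0 for CBP and 6 of 7 for p300, where 36.8% and 49.2% of all genes did. Their median log2 ratio was −0.25 and −0.24, beside 0.09 and 0.00 for all genes. Over whole libraries the medians were −0.64 and −0.54. Both comparisons share the control library and are not independent of each other. The interval of the class-matched ratio lay below 0 in both libraries for Gclc, Gclm and Nfe2l2, for p300 alone in Slc3a2 and for CBP alone in Hmox1. Control astrocyte-like nuclei had the highest Slc3a2 level and held 200 of the 375 control UMIs of Hmox1. The limit given for Slc7a11, that the control library alone held these nuclei as a source of free RNA, applies to both genes too. It also applies to Gclc, Gclm and Nfe2l2, at 145, 79.5 and 76.2 CPM in control astrocyte-like nuclei. Their levels were lower in NPC/OPC-like nuclei, at 51.9, 27.8 and 5.61 CPM, and higher in glial progenitor-like nuclei, at 329, 107 and 87.5 CPM. Between the ablated libraries, the class-matched log2 ratio of CBP over p300 was −0.72 (−1.16 to −0.28) for Hmox1 and 0.43 (0.19 to 0.67) for Slc3a2, a comparison that leaves out the control. The part of free RNA in any of these genes was not tested.

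**Figure D4:**
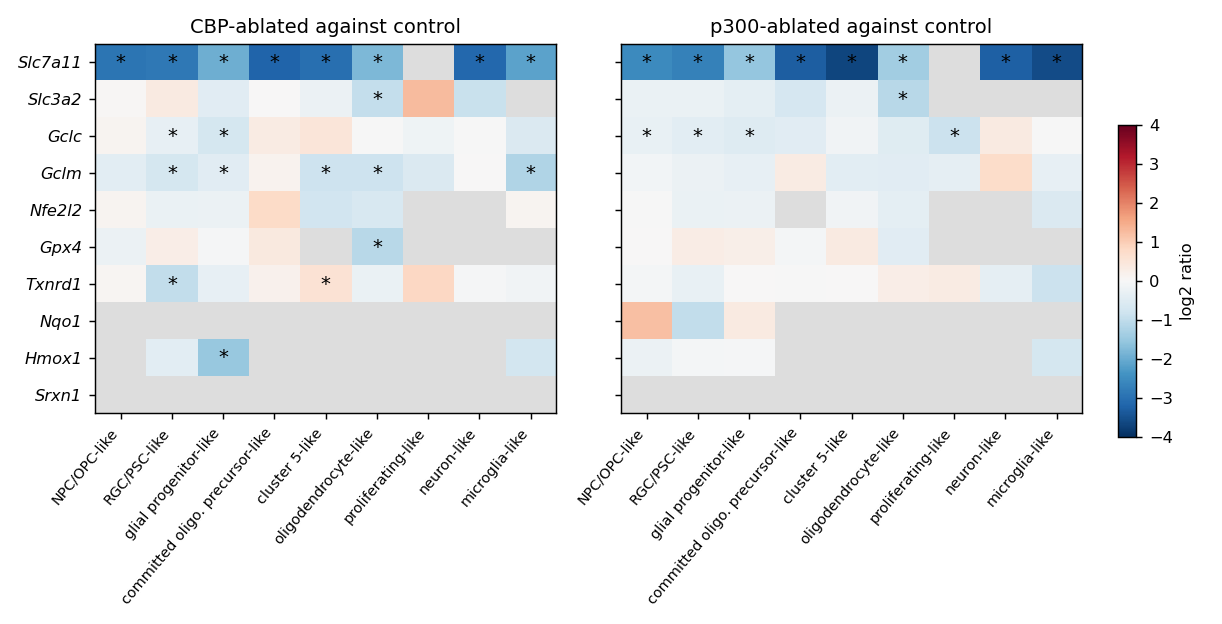
Log2 ratio of the 10 genes (rows) in each of 9 classes (columns) for the CBP-ablated (left) and p300-ablated library (right), as color from −4 to 4; asterisks mark 95% counting intervals clear of 0, and grey cells had under 20 UMIs in both libraries together or 0 in 1 of them. The Slc7a11 row is blue with an asterisk in each colored cell, while the other rows are pale and hold scattered asterisks.

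The genes around the members were counted in 8 lists, which overlap and hold 119 genes, members included. The counts of genes at least 2 times lower are to be read beside 0.809% of all genes for CBP and 0.291% for p300 when matched for class, and beside 3.99% and 2.12% over whole libraries. The medians stand beside class-matched medians of all genes of 0.09 and 0.00. Matched for class, the list of glutathione synthesis and turnover had 0 of 8 measured genes at least 2 times lower for CBP and 0 of 10 for p300, with medians of −0.21 and −0.27. NRF2 and its regulators had 0 of 10 in both, with medians of −0.04 and −0.01. The thioredoxin and peroxiredoxin system had 0 of 16 in both, with 9 of 16 below 0 for CBP and 15 of 16 for p300 (medians −0.01 and −0.26). Glutathione peroxidases and transferases had 0 of 6 and 0 of 8, with medians of −0.31 and −0.15, and the genes of lipid peroxidation and ferroptosis 0 of 11 in both, with medians of −0.04 and −0.04.

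Matched for class, the measured genes past 2 times lay in 3 lists. Among cystine and amino acid carriers, 2 of 8 measured genes were at least 2 times lower for CBP, Slc7a11 itself and Slc7a5, the light chain of the large neutral amino acid carrier that also pairs with Slc3a2. Slc7a5 had 34.5 CPM in control, 6.04 after CBP ablation and 10.4 after p300 ablation, with class-matched log2 ratios of −1.09 (−1.53 to −0.66) and −0.54 (−0.86 to −0.22). The median of the carriers was −0.17 for CBP and −0.03 for p300, where Slc7a11 was the 1 gene of 8. Of the ATF4 targets, a list that holds Slc7a11 and Slc7a5 too, 2 of 15 were at least 2 times lower for CBP and 1 of 15 for p300, with medians of −0.20 and −0.11. These were again Slc7a11 and Slc7a5 for CBP and Slc7a11 for p300, so no further ATF4 target was past that size. Over whole libraries the makeup of the cultures enters. There 6 of 16 measured ATF4 targets were at least 2 times lower for CBP and 5 of 16 for p300. Both counts hold Slc7a11 and Slc7a5. The others included the factor Atf5, at −2.02 and −1.58, the serine synthesis enzyme Phgdh, at −1.31 and −1.47, and the glycine transporter Slc6a9, at −1.44 and −1.29.

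Among NRF2 target enzymes and those of NADPH supply, 0 of 15 measured genes was at least 2 times lower for CBP and 2 of 15 for p300, both of them chains of ferritin, the store of iron. The heavy chain Fth1 had 66.9 CPM in control, 31.5 after CBP ablation and 21.1 after p300 ablation. Its class-matched log2 ratio was −0.60 (−0.82 to −0.38) for CBP and −1.03 (−1.23 to −0.83) for p300. The light chain Ftl1 had 48.1, 19.5 and 14.9 CPM, with class-matched log2 ratios of −0.71 (−0.97 to −0.44) and −1.09 (−1.33 to −0.85). Both chains, like the member Slc7a11, had entered the clustering, as had Slc7a7 and Blvrb, which are named below. The class-matched median of this list was −0.25 for CBP and −0.13 for p300. Over whole libraries 6 of 17 of these enzymes were at least 2 times lower for CBP and 4 of 17 for p300, with 13 of 17 and 17 of 17 below 0, where 43.4% and 54.8% of all genes were.

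Other measured genes of the lists were past 2 times in whole libraries alone, and the counts given here also hold genes named above. Of the carriers, 3 of 8 were past it for CBP and 3 of 9 for p300, with Slc7a11 and Slc7a5 among them in both. Of the genes of glutathione synthesis 3 of 10 and 2 of 10 were past it. The peroxidases and transferases had 3 of 8 and 2 of 10, and the thioredoxin system 1 of 16 in both. The third carrier for CBP was Slc7a7, the light chain of a carrier of basic and neutral amino acids, at a whole-library log2 ratio of −1.41 and a class-matched one of −0.55 (−1.13 to 0.03). In glutathione synthesis the genes were Cbs and Cth, the enzymes that make cysteine from homocysteine, in both ablated libraries, and Oplah, which recycles oxoproline, after CBP ablation. Cbs had 14.2 CPM in control, 2.43 after CBP ablation and 3.76 after p300 ablation, whole-library log2 ratios of −2.55 and −1.92 and class-matched ratios of −0.61 and −0.36 with intervals that include 0. Cth had 9.07, 2.90 and 4.40 CPM, with class-matched log2 ratios of −0.98 (−1.61 to −0.34) and −0.50 (−0.97 to −0.02). Of the glutathione transferases, Gsta4 was past this size in both libraries, at whole-library log2 ratios of −1.11 for CBP and −1.47 for p300, Gstm1 and Gstt1 after CBP ablation and Mgst1 after p300 ablation. Matched for class Gsta4 had −0.31 (−0.91 to 0.30) and −0.88 (−1.43 to −0.33), and Mgst1 had −0.96 (−1.48 to −0.43) for p300. Thioredoxin itself, Txn1, had whole-library log2 ratios of −1.14 and −1.01, and the biliverdin reductase Blvrb −1.64 and −1.47. Matched for class the log2 ratio of Blvrb was −0.91 (−1.45 to −0.37) and −0.75 (−1.20 to −0.30), below 0 in both, and that of Txn1 −0.38 (−0.87 to 0.11) and −0.47 (−0.88 to −0.07). In the other direction Alox5, the arachidonate 5-lipoxygenase of immune cells, had 4.23 CPM in control and 9.73 after CBP ablation, and matched for class its log2 ratio was 0.09 (−0.41 to 0.60).

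**Figure D5:**
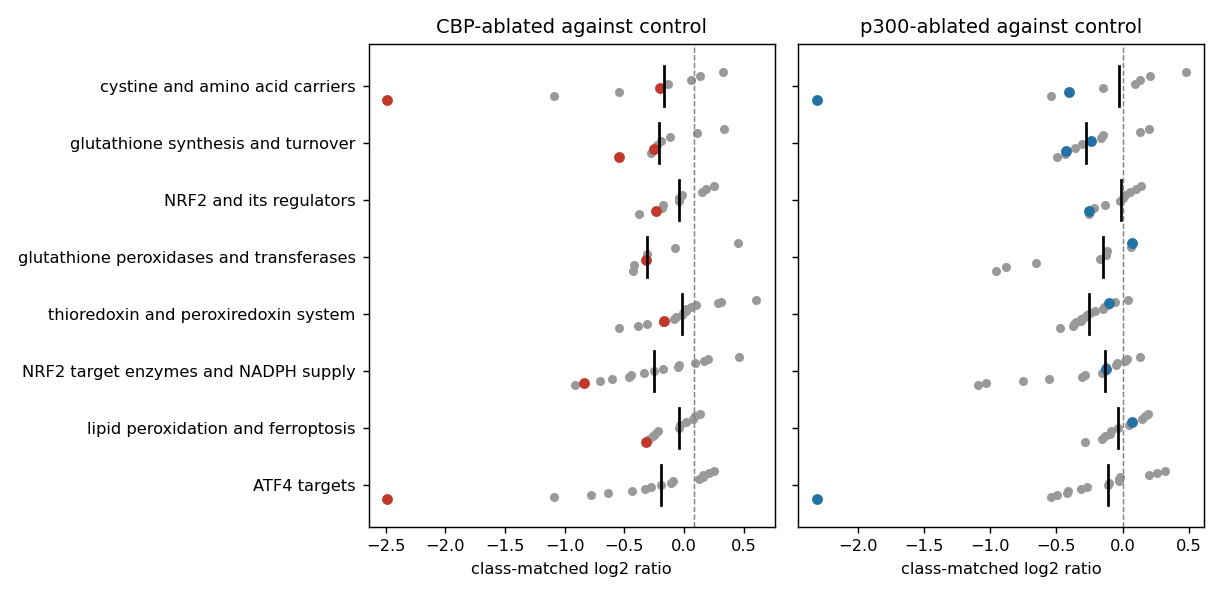
Class-matched log2 ratio of every measured gene of 8 pathway lists in the CBP-ablated (left) and p300-ablated library (right); colored dots are members, grey dots the other genes, black bars the median of a list and the dashed line the median of all genes. The list medians lie between −0.31 and −0.01, and Slc7a11, shown in the lists of carriers and ATF4 targets, is the lowest point of both panels.

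Cluster 7, which no marker list named, had higher control values of Gclc, Gclm, Hmox1 and Nqo1 than any named class. For Gclc, Gclm and Hmox1 the interval overlaps that of the next named class. Hmox1 had 84.2 CPM (59.9 to 115) there and 80.7 CPM (51.2 to 121) in microglia-like nuclei. Nqo1 was clear of the next, at 47.5 CPM (29.8 to 71.9) against 9.15 CPM (5.12 to 15.1) in RGC/PSC-like nuclei. The cluster numbered 216, 75 and 160 nuclei, with a median of 2058 UMIs per nucleus. Its leading genes were Cdkn1a, Eva1c, Sesn2, Wnt5b, Lmna, Ubb, Ftl1, Mdm2, Gclm and Ccng1, several of them known targets of p53. Since Gclm and Ftl1 are among its defining genes, the levels within a library are a description. Gclc had 393, 187 and 171 CPM there, Gclm 274, 141 and 93.4 CPM and Txnrd1 158, 84.8 and 109 CPM. Hmox1 had 39, 1 and 17 UMIs, Nqo1 22, 3 and 1, and Slc7a11 195, 3 and 4. The control nuclei of the cluster had the highest level of the 3 libraries for these 6 genes, though the log2 ratio of Txnrd1 for p300 was −0.53 (−1.12 to 0.03) and that of Nqo1 for CBP −1.49 (−3.87 to 0.25). The other members showed no difference beyond counting error there: the log2 ratio was 0.09 (−0.89 to 0.99) and −0.14 (−0.90 to 0.61) for Slc3a2, 0.05 (−0.92 to 0.94) and −0.08 (−0.82 to 0.65) for Nfe2l2, and 0.30 (−1.12 to 1.59) and −0.65 (−2.00 to 0.59) for Gpx4, and Srxn1 had 3, 0 and 1 UMIs. The log2 ratio within the cluster was −1.07 (−1.66 to −0.53) for CBP and −1.20 (−1.63 to −0.78) for p300 in Gclc, and −0.96 (−1.64 to −0.33) and −1.55 (−2.13 to −1.01) in Gclm. In control, Slc7a11 in this cluster stood at 37.6% of its astrocyte-like level, and the astrocyte markers ran from 10.5% (Ntm) to 66.9% (Rorb). Whether nuclei of the same kind are compared between the libraries here was not tested. The summed ratios by class above leave this cluster out.

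Over the 34 units of class and library with at least 20 nuclei, the 10 rows whose log2(CPM + 1) ran most like Slc7a11 were Slc6a11 (Pearson's r of 0.82), Svep1 (0.81), the RFP row of the control vector (0.78), Apoe (0.78), Dio2 (0.77), Txlnb (0.76), Slc27a1 (0.76), Slc25a34 (0.76), Tmem229a (0.73) and Gcnt4 (0.73). The vector row is present in control alone, which shows how far these coefficients follow the library. By Spearman's rank correlation 3 of the 10 stayed among the first 10. Of 13130 rows compared, the members came later: Hmox1 at rank 118 (r of 0.59), Gclc at 176, Gclm at 180, Slc3a2 at 186 (r of 0.55), Nqo1 at 648, Nfe2l2 at 858, Txnrd1 at 1586 and Gpx4 at 2508, with Srxn1 under the minimum of 100 UMIs. The units share libraries and cells of origin, so the coefficients are descriptions.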

How the data were processed

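Single-nucleus RNA-seq libraries (10x) of 3 pools of neurosphere cultures at day 15 were analysed. The authors deposited 1 matrix of UMI counts per library, with reads over exons and introns counted on GRCm38. The submitters' processing notes name FastQC 0.11.9, Cell Ranger 3.1 and Seurat 2.3.4. Groups were taken from the sample labels, with 1 library per condition, so that no test between conditions was run and no p-value is given.

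The rows of the 10 members were found by symbol. The members, the pathway lists and the measures were chosen with earlier results of these data known. All deposited nuclei (at least 500 UMIs each) were kept, and Scrublet in scanpy 1.11.5 called 191, 73 and 173 doublets, which were left out as an alternative. Clusters came from Seurat 5.3.0 (R 4.3.3) on 1576 dispersed genes, 20 principal components and a resolution of 0.6. A cluster was named where at least 60% of the markers of a list, and at least 3, had a UMI in 10% of its nuclei at 2 times the level of the rest, limits set after the clusters were seen. Cluster 5-like stands for the class that the study read as immature neurons.

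UMI counts were summed per class and library in Python 3.11.15 (numpy 2.4.6, scipy 1.17.1, pandas 2.3.3). Levels have exact Poisson intervals, log2 ratios exact conditional binomial intervals, and class-matched ratios intervals by the delta method, all at 95% and for counting error only. A count of 0 allows up to 3 UMIs, or 0.184, 0.235 and 0.159 CPM in the control, CBP-ablated and p300-ablated library. Counts of genes past 2 times used those that reached 100 UMIs over the compared libraries. Ratios by class needed at least 20 nuclei per class.

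Of the pathway lists, the genes named were those past 2 times among the measured, at most the 4 of largest size besides members in each list. Of the genes most like Slc7a11, the 10 of highest Pearson correlation were named. Alternatives covered scaling, doublets, depth, clustering and free RNA, and the subtraction of astrocyte RNA at the lowest marker was added after the data were seen. The class-matched ratio was also run on simulated Poisson counts drawn from class profiles shared by the compared libraries. Such counts do not hold the unevenness between nuclei, so the run cannot say how well the intervals cover the real data. The values of 1 astrocyte marker are not reported here.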

Additional observations from a re-analysis of the deposited data

How the results depend on the processing

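The whole-library log2 ratio of Slc7a11 moved within −5.37 to −5.21 for CBP and −5.06 to −4.93 for p300 over the alternatives of scaling, doublets, depth and weighting. Matched for class it was −1.98 for CBP and −1.81 for p300 with 5% free RNA subtracted, −1.40 and −1.21 with 10%. For p300 it was −2.58 at a clustering resolution of 0.3 and −2.62 with the members and pathway genes left out of the clustering. The number of the other 9 members at least 2 times lower after CBP ablation, matched for class, was 0 as reported, and 1 (Hmox1) at resolution 0.3, with variable genes by the vst method, and with the members left out of the clustering; the cause was not tested. Subtracting astrocyte RNA from the control classes up to the lowest marker, with nothing taken from the ablated libraries, reversed the class-matched ratio of Slc7a11 to 2.88 and 4.18 and that of Slc3a2 for p300 to 0.14. For Slc7a11 this follows from the construction, since the 7 of 9 classes where it lay below the lowest marker are set to 0, and it is no evidence of either direction. Of the values of the other members under alternatives, 298 moved by less than their counting interval, 7 moved further and 1 reversed. With 1 library per condition, no culture-to-culture spread was measured, and members with few UMIs (Srxn1, Nqo1) could not be compared by class. No paired analysis was possible because each condition had 1 library.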
